A study of Mus musculus with 17 samples.

Results

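Messenger RNA of 6 protein kinase C genes, Prkca, Prkcb, Prkcd, Prkce, Prkch and Prkcz, was followed through single neurons and tissue sections of the mouse anterior thalamus. They were taken by gene symbol from the 52636 genes of the single-cell table and the 28692 genes of the spot table, and all 6 were present in both tables. Prkci and Prkcq, of the same family, are given by their values. The cells came from acute slices of wild-type B6 mice, were microdissected and harvested by hand, and 3 animals gave 904 cells with at least 1000 detected genes. The anterior nuclei (anterodorsal, anteroventral and anteromedial) are relay nuclei of the limbic system. The sections were Visium arrays of wild-type brain, an assay that captures RNA at spots covering several cells or parts of them, and they were labelled anterior (section 5) or posterior (sections 2 and 6) with respect to these nuclei. The labels name no treatment, and the ages of the animals are not given in the sources used here.

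Protein kinase C enzymes are serine/threonine kinases that act below receptors coupled to Gq. Phospholipase C splits a membrane lipid into IP3, which releases calcium, and diacylglycerol, which stays in the membrane. The conventional enzymes (such as Prkca and Prkcb) respond to both calcium and diacylglycerol, a second group (Prkcd, Prkce, Prkch, Prkcq) to diacylglycerol without calcium, and the atypical ones (Prkcz, Prkci) to neither. PKC delta, encoded by Prkcd, is a familiar marker of thalamic relay neurons. Levels are given as CPM, counts of a gene per 1e6 counts of the same cells or spots. CPM is not corrected for gene length, so levels are compared between groups and not between genes.

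Animals 1, 2 and 3 gave 103, 328 and 473 cells, with median counts per cell of 49798, 8845 and 50474. The sections held 2540 spots with 13788407 counts (anterior section 5), 2794 spots with 26032042 counts (posterior section 2) and 2493 spots with 18582120 counts (posterior section 6). Leiden clustering without the PKC genes gave 4 neuron clusters (877 cells) and an oligodendrocyte-like cluster 5 (27 cells, all with counts of at least 3 oligodendrocyte markers). Slc17a6, the vesicular glutamate transporter of thalamic relay neurons, averaged between 808 and 1081 CPM in the 4 neuron clusters. Cluster 1 (433 cells) carried the anteroventral markers, with Car4 at 166 ± 38.3 CPM (SD, n = 3 animals). Cluster 2 (262 cells) carried Tnnt1 at 544 ± 247 CPM, and cluster 3 (140 cells) Calb2 at 434 ± 146 CPM. Cluster 3 also held 5 cells with markers of GABA neurons, and Gad2, Gad1 and Sst led its comparison with the others. Cluster 4 (42 cells) was marked by the anterodorsal gene C1ql2 at 1207 ± 229 CPM. Spots fell into 12 regions, numbered by size. Region 7 (657 spots) was the thalamic region, with Slc17a6 at 520 ± 15.6 CPM (SD, n = 3 sections) and Tcf7l2 at 703 ± 28.0 CPM. Values in spots are sums over several cells, so fewer cells of a type and less RNA per cell cannot be told apart there.

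Prkcd lies on chromosome 14 (30595353 to 30626414, minus strand) and Prkca on chromosome 11 (107933387 to 108343888, minus strand) in RefSeq's GRCm38.p6. RefSeq start-site windows, 250 bases before to 50 after a start, were at hand for Prkca, Prkcb, Prkcd and Prkcz among the 6 genes; Prkce and Prkch are named only. The Prkcd windows are shown because Prkcd sets the thalamic spots apart below, and the Prkca window because Prkca sets cluster 4 apart. Capitals mark matches, on either strand, to GGGCGG (the GC box bound by Sp1-type factors), CTTTGA (the core of sites read by TCF/LEF factors), AGGTCA (a nuclear receptor half-site) or TATAAA (the TATA box).
Prkcd, outer start, chr14:30626159-30626458, minus strand: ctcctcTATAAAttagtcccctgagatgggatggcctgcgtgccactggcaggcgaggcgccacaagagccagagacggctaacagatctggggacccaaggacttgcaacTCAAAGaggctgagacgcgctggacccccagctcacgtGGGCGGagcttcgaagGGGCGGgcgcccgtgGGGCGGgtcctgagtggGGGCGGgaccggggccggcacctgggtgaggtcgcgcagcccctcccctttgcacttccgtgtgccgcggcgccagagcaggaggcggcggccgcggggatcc
Prkcd, inner start, chr14:30610261-30610560, minus strand: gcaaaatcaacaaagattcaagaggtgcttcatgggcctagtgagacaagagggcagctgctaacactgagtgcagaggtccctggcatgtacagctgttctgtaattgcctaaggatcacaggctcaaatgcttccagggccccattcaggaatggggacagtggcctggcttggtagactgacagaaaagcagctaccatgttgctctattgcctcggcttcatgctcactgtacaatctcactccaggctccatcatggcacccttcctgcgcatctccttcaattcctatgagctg
Prkca, chr11:108343839-108344138, minus strand: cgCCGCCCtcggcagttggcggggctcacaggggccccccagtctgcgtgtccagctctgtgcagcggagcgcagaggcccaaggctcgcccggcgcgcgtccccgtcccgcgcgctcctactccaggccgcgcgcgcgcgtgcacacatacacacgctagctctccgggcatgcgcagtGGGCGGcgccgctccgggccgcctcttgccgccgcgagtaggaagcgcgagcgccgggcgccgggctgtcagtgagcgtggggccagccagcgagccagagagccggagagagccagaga
The outer Prkcd window held 4 GC boxes, 1 TCF/LEF core and 1 TATA box, and the inner window held none of the 4 motifs. The Prkca window held 2 GC boxes and no other match. Over all 32851 RefSeq mouse windows of the same length, 35.7% held a GC box, 16.0% a TCF/LEF core, 16.3% a nuclear receptor half-site and 13.6% a TATA box. The outer Prkcd window was 69.3% G or C and the Prkca window 75.3%, against a median of 52.7% over all windows. These matches describe the letters of the windows and nothing about binding.

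The first question was whether neuron clusters differ in their protein kinase C genes. Prkca, which encodes the conventional enzyme PKC alpha, was high in cluster 4, the C1ql2-marked neurons, in every animal. Prkca reached 207.5, 130 and 73.6 CPM in cluster 4 of animals 1, 2 and 3, against at most 23.1 CPM in any other neuron cluster of any animal. The groups did not overlap. Cluster 4 averaged 137 ± 67.2 CPM and the other clusters 11.7 ± 4.09 CPM (SD, n = 3 animals), and the log2 fold change was 3.53 ± 0.45 (SE, edgeR adjusted p = 0.000238). In pairs with cluster 4, Prkca was lower in each of clusters 1, 2 and 3, with log2 fold changes between -3.73 and -3.18 and edgeR adjusted p between 0.00207 and 0.0164, where 5.99%, 12.9% and 3.11% of all genes were called. In cluster 4, 30 of 42 cells held a Prkca count, and the 5 cells with most Prkca gave 48.5% of its 406 counts. Animals 1, 2 and 3 gave 6, 9 and 27 of the 42 cells, with 146, 21 and 239 Prkca counts.

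Smooth muscle markers moved with cluster 4 in animal 3. The summed level of 5 pericyte and smooth muscle markers there was 1121 CPM in animal 3, 6.20 CPM in animal 2 and 0 in animal 1, with 4, 1 and 0 of the 5 detected. In the other neuron clusters it was at most 11.6 CPM in any animal. Animals 1 and 2, in which these markers were at or near 0, had the higher Prkca levels. The 38 cells of cluster 4 with fewer than 3 of these markers held Prkca at 101 CPM over their summed counts. The 4 cells with 3 or more held 20.9 CPM, from 2 Prkca counts in 1 cell. Split by Acta2, which is among these markers, the 6 cells with a count held Prkca at 96.9 CPM and the 36 without at 98.9 CPM. Without the 27 neurons in which 3 or more genes of another type's marker list were counted, Prkca in cluster 4 passed (log2 fold change 3.61, edgeR adjusted p = 0.000105). Whether these markers bear on the Prkca level was not tested.

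No other member passed in these 4 comparisons. Of 24 comparisons of a member in 1 cluster against the mean of the other 3 clusters, 1 was called. Over all 12097 genes tested, 1.3% (cluster 1), 6.41% (cluster 2), 1.57% (cluster 3) and 10.1% (cluster 4) were called; in cluster 4, 5.15% rose and 4.94% fell. All 6 members passed the filter on low counts. Among the alternatives, this count changed most when animal 1 was left out. Without animal 1, 9 of the 24 were called, while 6.41%, 21.8%, 7.74% and 23.2% of all genes were called in clusters 1 to 4. The cause was not tested. The calls that appear without animal 1 were Prkca, Prkcd and Prkch in cluster 2, Prkce in cluster 1 and Prkcd, Prkce, Prkch and Prkcz in cluster 4, beside Prkca in cluster 4.

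Prkcd was detected in all 4 neuron clusters. In cluster 2, the Tnnt1-marked neurons, it was at 58.2, 257 and 210 CPM in animals 1, 2 and 3. In cluster 1 it was at 56.0, 170 and 128 CPM, and in cluster 3 at 2.65, 207 and 67.0 CPM. In cluster 4 it was at 61.1, 80.6 and 77.3 CPM. In animal 1, cluster 3 held 2 Prkcd counts in 12 cells, and 2 of 6 cells of cluster 4 held a count. The 5 cells with most Prkcd gave 19.4%, 20.9%, 52.2% and 58.3% of its counts in clusters 1 to 4. Cluster 2 was above clusters 1 and 3 in all 3 animals and above cluster 4 in animals 2 and 3, but the ranges of neighbouring clusters overlapped. Ordered by mean over animals, cluster 2 (175 ± 104 CPM) came before cluster 1 (118 ± 57.7 CPM), cluster 3 (92.2 ± 104 CPM) and cluster 4 (73.0 ± 10.4 CPM; SD, n = 3 each), and none of the 6 pairs passed, with edgeR adjusted p between 0.29 and 0.97. Of all genes, 0.67% were called between clusters 1 and 2, 1.8% between 1 and 3, and 2.66% between 2 and 3. Cluster 2 against the mean of the others gave a log2 fold change of 0.90 ± 0.44 (SE, edgeR adjusted p = 0.269). Without animal 1 it was 1.02 and passed (edgeR adjusted p = 0.00011), and cluster 4 then fell at -0.77 (edgeR adjusted p = 0.0168). Over all neurons animal 1 was lowest, at 50.5 CPM, against 190 CPM in animal 2 and 132 CPM in animal 3.

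**Figure D1:**
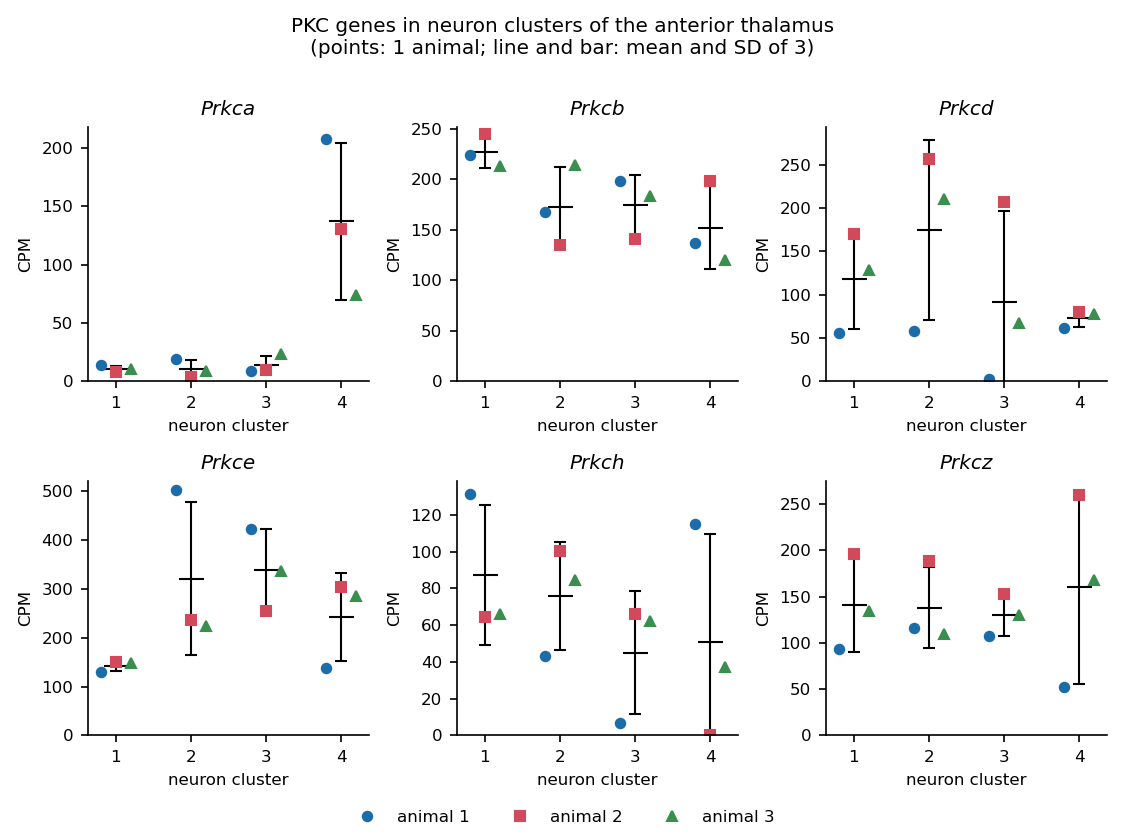
CPM of each member (vertical axis, from 0) in neuron clusters 1 to 4 (horizontal axis). Points are animals, and the line and bar are the mean and SD of 3 animals. Prkca in cluster 4 lies between 73.6 and 207.5 CPM, above every other point of that gene, whereas no cluster of the other members lies apart from all the rest.

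Prkcb, which encodes the conventional enzyme PKC beta, did not separate the clusters. It averaged 227 ± 16.0, 172 ± 39.6, 174 ± 30.04 and 152 ± 41.2 CPM in clusters 1 to 4, and no comparison passed (log2 fold changes between -0.34 and 0.46).

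The other enzymes that respond to diacylglycerol alone were uneven between animals. Prkce, which encodes PKC epsilon, was at 130, 150 and 149 CPM in cluster 1 of animals 1, 2 and 3, below every value of clusters 2 and 3. Cluster 4 was at 138, 304 and 286 CPM, and cluster 2 at 502, 237 and 224 CPM. Animal 1 was thus the highest of 3 in cluster 2 and the lowest in cluster 4. Cluster 1 against the mean of the others had a log2 fold change of -1.06 ± 0.30 (SE) and did not pass (edgeR adjusted p = 0.138), but it passed in 4 of 14 alternatives. Prkch, which encodes PKC eta, averaged 87.3 ± 38.1, 76.0 ± 29.4, 45.1 ± 33.4 and 50.8 ± 58.8 CPM in clusters 1 to 4, with no comparison passing. Prkcq, which encodes PKC theta, rose in cluster 1 (edgeR adjusted p = 0.0239), with 8.00, 16.4 and 7.23 CPM in animals 1, 2 and 3, against at most 2.53 CPM in clusters 2 to 4. The untested oligodendrocyte-like cluster 5 had a higher mean, 33.1 ± 40.6 CPM (SD, n = 3 animals). Counts of at least 3 oligodendrocyte markers were found in 4, 0, 1 and 0 cells of clusters 1 to 4. Whether these cells bear on the Prkcq level was not tested.

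The atypical enzyme Prkcz passed in no cluster. It averaged 141 ± 51.2, 138 ± 43.7, 130 ± 23.0 and 160 ± 104 CPM in clusters 1 to 4, with log2 fold changes between -0.13 and 0.12. The gene also makes PKM zeta, a brain form without the regulatory part of the protein, from an internal start, and counts per gene do not separate the forms. A separate row named Prkcz2 held 94 counts in 63 cells and was kept apart. The second atypical gene, Prkci, averaged between 15.1 and 33.6 CPM over the 4 clusters.

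Most neurons held counts of several members. Of the 877 neurons, 38 held none of the 6, 231 held 3 and 14 held all 6. Depth sets such counts, so each cell was thinned to 5000 counts, which left out 59 shallower neurons of animal 2 and 2 of animal 3. Of the 816 thinned neurons, 87 held none, 283 held 2, 5 held 5 and none held all 6. Prkcd was found in 8.91% of thinned neurons of animal 1 (exact 95% interval 4.16% to 16.2%), 38.4% of animal 2 (32.4% to 44.6%) and 28.9% of animal 3 (24.8% to 33.3%). Unthinned, the shares were 28.7%, 42.0% and 50.3%. The intervals cover counting error only. By this measure too animal 1 was low, but this was not particular to Prkcd. Animal 1 also had the lowest thinned share of Prkcb (36.6%), Prkce (39.6%), Prkch (15.8%) and Prkcz (23.8%), and the highest of Prkca (7.92%). Over all neurons its CPM of Prkce (266) and Prkch (90.5) was nevertheless the highest of the animals. Cells of animals 1 and 3 had similar median counts but medians of 3420 and 4480 detected genes. Thinning to equal counts therefore need not make detection equal between animals.

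The thinned share of Prkcd averaged 35.3 ± 21.7% in cluster 2, 24.1 ± 8.49% in cluster 4, 23.5 ± 14.1% in cluster 1 and 13.96 ± 14% in cluster 3 (SD, n = 3 animals). Cluster 4, last by CPM, came after cluster 2 by this share, and no order is read from values so spread. In the oligodendrocyte-like cluster 5 it was 6.09 ± 5.63%, and unthinned 7.79 ± 7.23%. Prkca was found in 46.3 ± 22.4% of thinned cells of cluster 4, against means of 2.81% to 4.17% in the other neuron clusters and 6.09% in cluster 5. Cells with and without Prkcd held the other members in these shares. Of thinned neurons with Prkcd, 46.7% also held Prkce, against 48.6% of those without, and 37.1% held Prkcz, against 35.4%. For Prkch the shares were 16.2% with Prkcd and 22.2% without, and for Prkca 2.5% (6 cells) and 4.86%, a pooled description over 3 animals of unequal depth.

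The second question was where the members lie in the tissue. In the sections, Prkcd and Prkch were higher in the thalamic region 7 than in any other tested region, while Prkca and Prkcb were below the mean of the other regions there. Over the 11 regions present in all 3 sections, 52 of 66 comparisons of a member with the mean of the other regions were called. Many genes differed between regions in these fits, and of the 12801 genes tested 41.6%, 44.1%, 27.8%, 46.4%, 48.2%, 26.5%, 30.6%, 38.9%, 39.2%, 19.5% and 54.2% were called in regions 1 to 11. In region 7, 2 members rose and 2 fell, where 17.7% of all genes rose and 12.9% fell.

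Prkcd was at 93.0 CPM in anterior section 5, 116 CPM in posterior section 2 and 284 CPM in posterior section 6 of region 7. The other 10 regions tested lay between 3.38 and 66.8 CPM in every section. The groups did not overlap. Region 12, which held 61 spots of posterior section 6 alone and was not tested, had Prkcd at 141 CPM, above the thalamic values of sections 5 and 2. Region 7 averaged 164 ± 104.5 CPM and the other regions 14.04 ± 1.16 CPM (SD, n = 3 sections), with a log2 fold change of 3.86 ± 0.14 (SE, edgeR adjusted p = 4.81e-31). In region 7, 293 of 657 spots (44.6%) held a Prkcd count, against 32 of 841 spots (3.80%) in region 4, led by Adam33, Ovol2 and Tspan11. The share was 12.5% in region 5, 24.9% in region 11 and, above that of region 7, 70.5% in the untested region 12.

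Below the thalamic region, Prkcd levels were ordered from region 5 (40.8 ± 22.5 CPM) through region 11 (28.7 ± 4.59), region 6 (16.9 ± 5.17), region 3 (14.2 ± 4.95), region 10 (11.5 ± 7.68) and region 9 (8.52 ± 2.25). Regions 1, 2, 8 and 4 were last, with means of 5.23 CPM or less. Each of these neighbours overlapped in range with the next, except region 11, whose lowest value, 24.6 CPM, was above the highest of region 6, 20.2 CPM. Region 5 was led by Sln, Cxcl5 and Thbs4 and held the myelin gene Mbp at 22230 ± 3445 CPM. Prkcd rose there (log2 fold change 1.98 ± 0.24, edgeR adjusted p = 3.34e-10; 48.2% of genes called) and in region 11, led by Prr32, Defb11 and Frmpd1os (1.27 ± 0.32, edgeR adjusted p = 0.000673; 54.2% called). These fits compare log levels. On mean CPM, region 11 was at 28.7 ± 4.59 CPM, against 27.6 ± 11.2 CPM in the other regions, which include region 7, and 2 of 3 sections were higher. Region 5 was at 40.8 ± 22.5 CPM, against 26.4 ± 11.9 CPM, again higher in 2 of 3 sections. It fell in regions 1, 2, 4 and 8, with log2 fold changes between -1.88 and -1.44. In the single-cell data the oligodendrocyte-like cells had Prkcd at 76.9 CPM over their summed counts, all of it from 3 of 27 cells.

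Prkch was high in 2 of the 11 tested regions. In region 7 it was at 59.6, 72.9 and 74.9 CPM in sections 5, 2 and 6, and in region 2, led by Cd4, Sh3rf2 and Serpina9, at 39.7, 48.3 and 44.7 CPM. Every other region, region 12 included, was at 12.01 CPM or less in every section. Prkch rose in region 7 (log2 fold change 3.17 ± 0.12, edgeR adjusted p = 4.08e-30) and in region 2 (2.57 ± 0.12, edgeR adjusted p = 9.12e-27; 44.1% of genes called). It fell in regions 1, 3, 4 and 8, but the call in region 3 was lost in 5 of 8 alternatives. The call in region 8 (-0.80) was lost without section 2 (-0.85, edgeR adjusted p = 0.0509) and without section 5 (-0.66, edgeR adjusted p = 0.054).

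Prkcb was highest in region 2. All 7 striatal markers had a count somewhere among its 1085 pooled spots, which by itself does not name the tissue. Prkcb was there at 921, 888 and 935 CPM in sections 5, 2 and 6, against 176, 169 and 180 CPM in region 7. Prkcb rose in region 2 (log2 fold change 2.03 ± 0.07, edgeR adjusted p = 1.83e-34) and fell in region 7 (-0.71 ± 0.09, edgeR adjusted p = 7.95e-09). Region 7 was not the lowest: regions 3, 5, 9, 10 and 11 had lower means, between 79.2 and 162 CPM. In all, Prkcb rose in 5 of 11 regions and fell in the other 6. Prkca was at 20.2, 30.03 and 35.7 CPM in region 7 of sections 5, 2 and 6, and at 189, 193 and 188 CPM in region 4. It fell in region 7 (log2 fold change -1.34 ± 0.15, edgeR adjusted p = 1.33e-10) and rose in region 4, the highest of the tested regions (1.66 ± 0.09, edgeR adjusted p = 6.39e-24; 46.4% of genes called). Region 10, at 28.6 ± 21.4 CPM, had the same mean Prkca level as region 7, at 28.6 ± 7.83 CPM.

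Prkce and Prkcz did not set the thalamic region apart. Prkce was at 210, 164 and 200 CPM in region 7 of sections 5, 2 and 6, within the range of the other regions (log2 fold change -0.02 ± 0.08, edgeR adjusted p = 0.894). Among the tested regions it was highest in region 8, with Mas1 and Nov among its leading genes (504.5, 433 and 477 CPM; log2 fold change 1.43 ± 0.07, edgeR adjusted p = 2.31e-26; 38.9% of genes called), and lowest in region 11 (57.7, 44.0 and 33.8 CPM; -2.11 ± 0.14, edgeR adjusted p = 8.66e-20). Prkcz was at 144.5, 134 and 136 CPM in region 7 (log2 fold change 9.9e-05 ± 0.06, edgeR adjusted p = 1.00), and its highest level was in region 2 (207, 181 and 218 CPM; 0.70 ± 0.07, edgeR adjusted p = 1.11e-13). In region 7, Prkci (log2 fold change 0.20 ± 0.14) and Prkcq (-0.11 ± 0.22) did not pass.

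**Figure D2:**
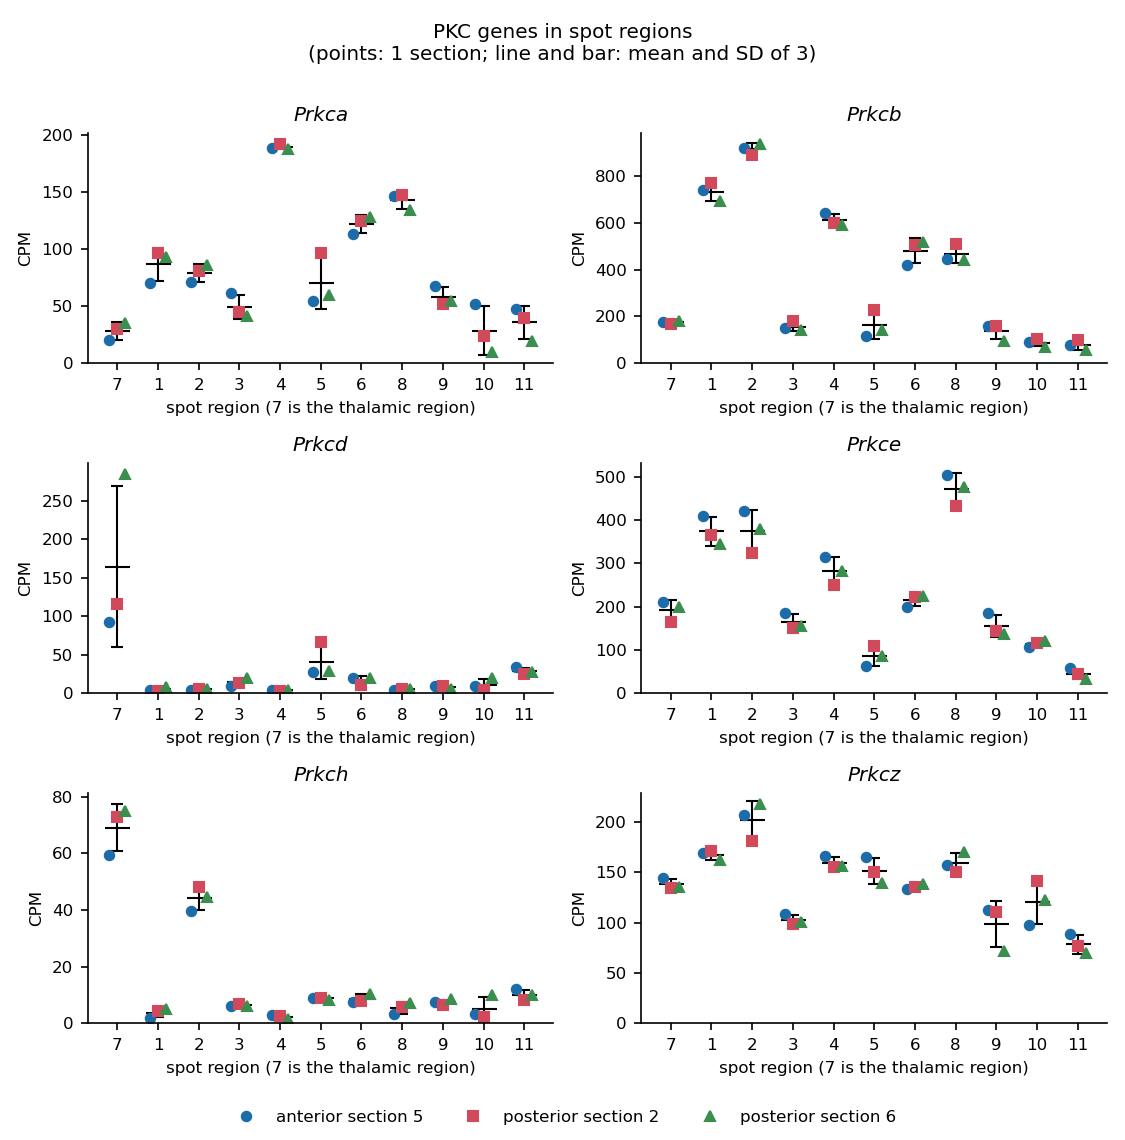
CPM of each member (vertical axis, from 0, own scale per gene) in the 11 tested spot regions (horizontal axis), the thalamic region 7 first. Points are sections, and the line and bar are the mean and SD of 3 sections. Prkcd in region 7 lies between 93.0 and 284 CPM, above all other points of that gene, and Prkch is high in regions 7 and 2.

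The third question was how the members vary within the thalamic region. Its 657 spots were clustered again without the PKC genes into 7 subregions, of which 6 had at least 5 spots in every section. Prkcd had its highest mean level in subregion 5 (79 spots), led by Ramp3, Prkcd itself and Htr2c. That subregion held 279 of the 813 Prkcd counts of the thalamic region, and subregion 2 held 196. Prkca had its highest mean level in subregion 6 (43 spots), which held 43 of the 142 Prkca counts of the thalamic region. Subregion 6 had C1ql2 and Rspo3 among its leading genes. The anterodorsal markers there summed to between 504 and 559 CPM in each section, against at most 34.5 CPM in subregions 1 to 5. Of 36 member comparisons with the mean of the other subregions, 4 were called. Of the 6533 genes tested, 9.44%, 7.01%, 3.29%, 1.13%, 0.964% and 12.7% were called in subregions 1 to 6.

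Prkcd was at 461 CPM in anterior section 5, 397 CPM in posterior section 2 and 529 CPM in posterior section 6 of subregion 5. The anterior value rests on 17 counts in 8 spots. The other subregions lay between 35.5 and 463 CPM, the highest being subregion 2 of section 6, so the ranges overlap through that 1 value. Subregion 5 averaged 462.5 ± 66.0 CPM (SD, n = 3 sections), with a log2 fold change of 1.89 ± 0.19 (SE, edgeR adjusted p = 6.49e-12; 0.735% of genes rose). Over 8 alternatives it lay between 1.38 and 2.59 and passed in each. In pairs, which were added after these values were seen, subregion 5 was above each of the other 5, with edgeR adjusted p of 0.000204 or less, where 4.19%, 1.93%, 0.719%, 0.536% and 7.59% of all genes were called against subregions 1, 2, 3, 4 and 6. Ramp3, the gene of a receptor partner protein that led this subregion, also marked neurons of clusters 2 and 3, at 191 ± 43.4 and 379 ± 234 CPM.

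Subregion 2, with the anteroventral marker Col27a1 at 96.4 ± 52.7 CPM, differed most between sections. Prkcd there was at 52.4 CPM in section 5, 66.4 CPM in section 2 and 463 CPM in section 6. Subregion 3 held 132, 35.5 and 214 CPM, subregion 4 held 41.3, 67.7 and 243 CPM, and subregion 6 held 38.3, 102 and 183 CPM in sections 5, 2 and 6. In each of these 4, section 6 was the highest, as it was in subregions 1 and 5. Over all spots of a section, Prkcd was at 15.3, 19.4 and 40.85 CPM in sections 5, 2 and 6. Subregion 1, led by Oxt, Calb2 and Rab3b, was more even at 87.6, 62.9 and 127 CPM, and Prkcd fell there (log2 fold change -0.86 ± 0.22, edgeR adjusted p = 0.00384), a call that was lost without section 6 (-0.44, edgeR adjusted p = 0.362), with DESeq2 (adjusted p = 0.499) and without the replicate block (edgeR adjusted p = 0.193). Ordered by mean, subregions 2, 3, 4, 6 and 1 came after subregion 5, with overlapping ranges.

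Prkca was at 38.3, 124 and 116 CPM in subregion 6 of sections 5, 2 and 6, against at most 42.5 CPM in the other subregions. The anterior section, with 5 counts in 17 spots, overlapped with them, and both posterior sections were above. Subregion 6 averaged 93.0 ± 47.5 CPM (SD, n = 3 sections), with a log2 fold change of 2.04 ± 0.34 (SE, edgeR adjusted p = 2.72e-06; 7% of genes rose). Prkca fell below the filter on low counts when section 2 or section 6 was left out, so those fits give no value for it. Prkca was also higher in neuron cluster 4, the C1ql2-marked neurons.

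Prkce rose in subregion 1, at 271, 248 and 235 CPM in sections 5, 2 and 6 (log2 fold change 0.60 ± 0.13, edgeR adjusted p = 0.000585). Without section 2 the value was 0.48 and the edgeR adjusted p 0.05003, so the call was lost. Prkcb, Prkch and Prkcz passed in none of the 6 subregions. Prkch in particular lay between 20.6 and 103 CPM in all 18 sums, with overlapping subregions, and subregion 5, with most Prkcd, was at 72.5 ± 7.81 CPM (SD, n = 3 sections).

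**Figure D3:**
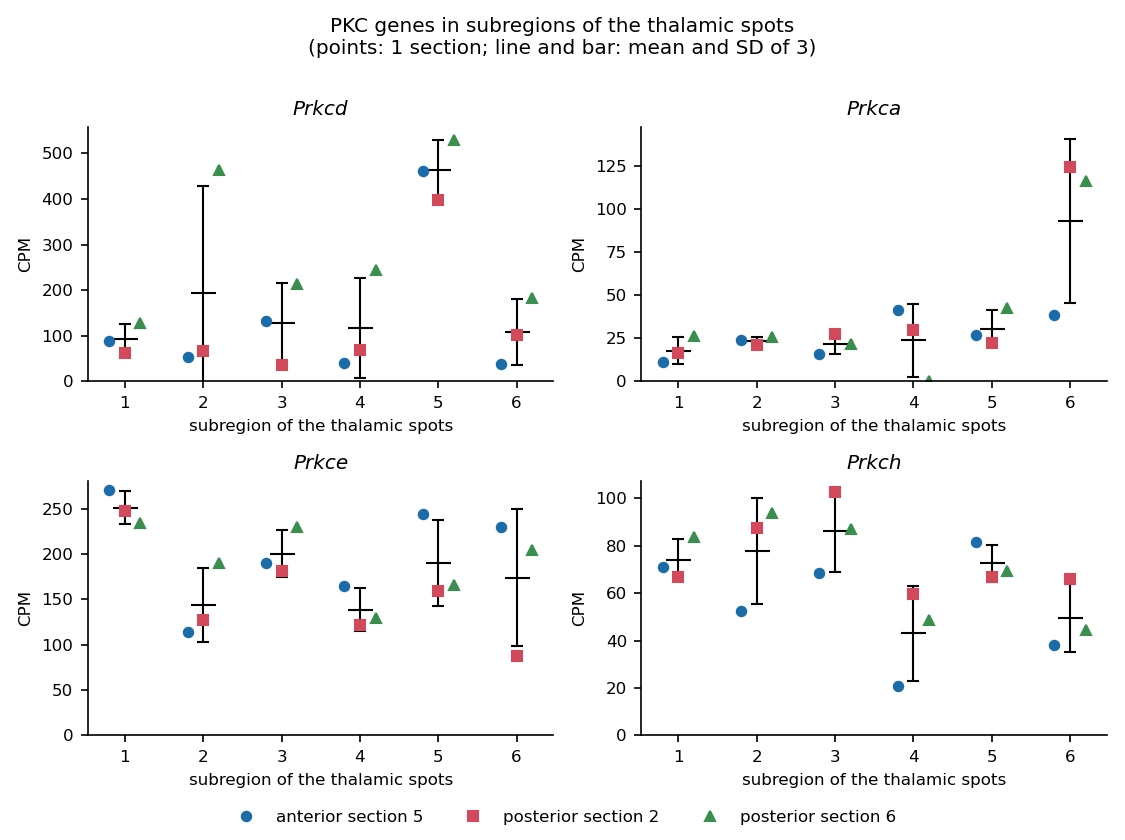
CPM of Prkcd, Prkca, Prkce and Prkch (vertical axes, from 0) in subregions 1 to 6 of the thalamic spots (horizontal axis). Points are sections, and the line and bar are the mean and SD of 3 sections. Prkcd in subregion 5 lies between 397 and 529 CPM in all sections, and the triangle of posterior section 6 reaches 463 CPM in subregion 2.

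The fourth question was whether the anterior section differs from the posterior ones. It has no replicate, so its values stand beside the posterior ones with exact Poisson 95% intervals that cover counting error only. Prkcd in the thalamic region was at 93.0 CPM (75.0 to 114) in anterior section 5, against 116 and 284 CPM in posterior sections 2 and 6, a ratio of 0.465 to the posterior mean. The posterior sections differed from each other by more than the anterior section differed from section 2. Within subregions 1 to 6 the ratios were 0.923, 0.198, 1.06, 0.266, 0.996 and 0.269. The anterior values of subregions 2, 4 and 6 rest on 11, 2 and 5 counts (intervals 26.1 to 93.7, 5.00 to 149 and 12.4 to 89.4 CPM). That of subregion 5 rests on 17 counts (interval 269 to 739 CPM). Subregion 5 held 8 of 201 thalamic spots in the anterior section, against 31 of 207 and 40 of 249 in the posterior sections. How these spot numbers bear on the level was not tested.

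The ratios of the other members were nearer to 1. Prkca in the thalamic region was at 20.2 CPM (12.3 to 31.2) in the anterior section, against 30.03 and 35.7 CPM in posterior sections 2 and 6. Prkch was at 59.6 CPM (45.4 to 76.9), against 72.9 and 74.9 CPM. Prkcb, Prkce and Prkcz had anterior to posterior ratios of 1.01, 1.16 and 1.07. For each of these 5 genes at least 1 posterior value lay within the anterior interval. For Prkcd the interval of section 2 (101 to 132 CPM) overlapped that of the anterior section, and that of section 6 (260 to 311 CPM) did not.

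**Figure D4:**
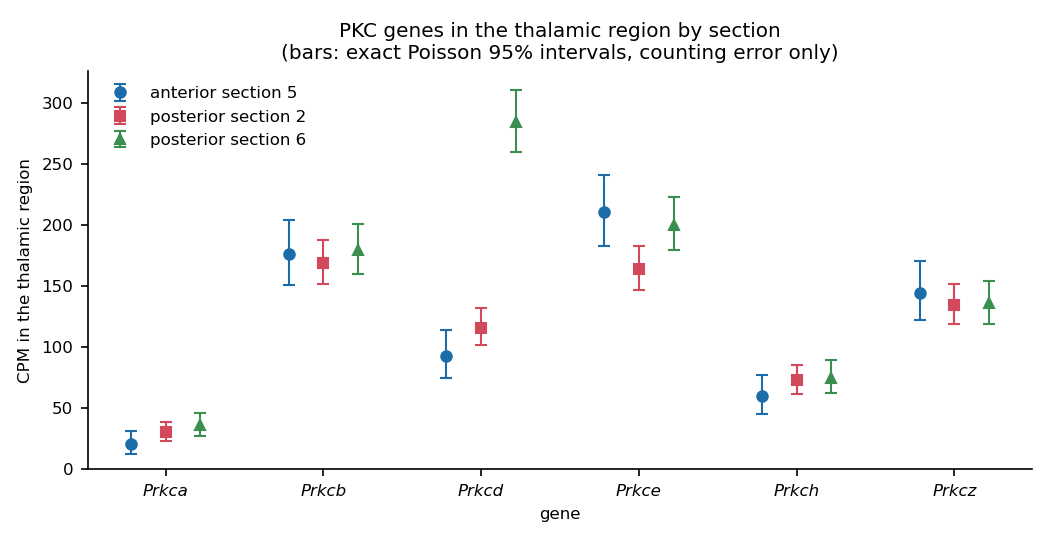
CPM of the 6 members in the thalamic region (vertical axis, from 0) in anterior section 5 and posterior sections 2 and 6, with exact Poisson 95% intervals as bars. Levels of different genes are not corrected for length. Prkcd is at 284 CPM in posterior section 6, against 93.0 CPM in the anterior section and 116 CPM in posterior section 2.

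A list of 85 genes around protein kinase C, from receptors to substrates, shows what changed beside the members. Unlike the PKC genes, these genes could take part in the clustering. Tests of neither are independent of the groups, which were made from other counts of the same cells and spots. In the thalamic region 74 of the 85 were tested, 17 rose and 14 fell, where 17.7% of all genes rose and 12.9% fell. Their median log2 fold change was 0.09, against -0.0016 over all genes. Among the Gq-coupled receptors 6 of 9 tested rose and 1 fell. Chrm1, a muscarinic receptor, fell (log2 fold change -1.83 ± 0.20, edgeR adjusted p = 3.28e-11). The phospholipases divided, since Plcb4 rose (1.85 ± 0.09, edgeR adjusted p = 1.56e-24) and Plcb1 fell (-1.07 ± 0.10, edgeR adjusted p = 1.47e-13). Of the substrates, 1 rose and 4 fell of 10 tested. Gap43, a growth-cone protein phosphorylated by PKC, rose (1.29 ± 0.07), and Nrgn, a postsynaptic substrate that binds calmodulin, fell with 133 ± 30.9 CPM in region 7 against 1638 ± 120 CPM elsewhere (-2.64 ± 0.14, edgeR adjusted p = 4.27e-24). Akap12, a scaffold that binds PKC, rose (1.85 ± 0.12).

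In neuron cluster 4, 65 genes of the list were tested, 5 rose and 9 fell, where 5.15% of all genes rose and 4.94% fell. Their median log2 fold change was -0.29, against -0.19 over all genes. Chrm1, itself one of the anterodorsal markers, rose to 84.6 ± 8.85 CPM in cluster 4, against 2.00 ± 2.99 CPM in the other clusters (log2 fold change 7.37 ± 0.90, edgeR adjusted p = 0.00016), and Grm5, a metabotropic glutamate receptor, fell to 24.5 ± 12.9 CPM, against 182 ± 35.3 CPM (-2.72 ± 0.35, edgeR adjusted p = 0.000224). Itpr1, the IP3 receptor of calcium stores, fell to 22.2 ± 18.6 CPM, against 160 ± 4.09 CPM (-2.99 ± 0.51, edgeR adjusted p = 0.00162). Rasgrp1, an exchange factor with a diacylglycerol-binding domain, fell there (-1.87 ± 0.32) and rose in clusters 1 and 2 (1.60 ± 0.25 and 1.19 ± 0.25). In the C1ql2-marked subregion 6 of the sections, Chrm1 rose (3.59 ± 0.55), and Itpr1 (-2.56 ± 0.29) and Plcb4 (-0.96 ± 0.19) fell, with 4 of 46 genes of the list up and 10 down, where 7% of all genes rose and 5.66% fell. In the Prkcd-rich subregion 5, 2 of 46 rose, among them the serotonin receptor Htr2c (1.86 ± 0.30), and 0 fell, where 0.735% of all genes rose and 0.23% fell.

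The genes most like Prkcd over the 33 sums per section and region, by Pearson's r of log2(CPM + 1) after subtracting each section's mean, were Tcf7l2 (0.89), Rgs3 (0.87), Shox2 (0.85), Prox1 (0.85) and Maob (0.85). Sums of 1 section share its depth and tissue, so these are descriptions. For Prkca they were Mpped1, Kcnv1, Nptx1, Lamp5 and Chrm1 (0.85 to 0.89), for Prkcb Ppp3ca, Chn1, Camkk2, Ppp3r1 and Egr1 (0.95 to 0.97), for Prkce Dock3, Rbfox3, Adgrl1 and Arf3 (0.96 to 0.97), and for Prkcz Fscn1, Cttnbp2, R3hdm4, Smarcd1 and Anks1b (0.87 to 0.90). Prkch fell below the mean level of 20 CPM required for this measure. Over the 12 sums per animal and neuron cluster, the genes most like Prkcd were Trpm2, Arhgap17, Gnl3, Gm43874 and Mapkbp1 (0.96 to 0.98), none of which is in its list over regions.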

How the data were processed

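Per the labels' protocols, single cells were dissected, barcoded at reverse transcription and pooled by plate, and Visium sections were made from frozen brains. The authors deposited raw counts per gene and well, and raw counts per gene and spot. The deposited well and spot lists hold, as other units, the animal of each well and the section of each spot. The submitters' processing notes name Seurat, Space Ranger and the builds NCBIM37 and mm10; aligner, strand and use of molecular identifiers are not given in the sources used here. No plate name matches any of the 14 labelled cell samples, so the animal number served as replicate. Wells with at least 1000 genes were kept, and 8 such wells whose source names another animal were left out, although the gene minimum would keep them.

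Cells and spots were scaled to 10000 counts, log-transformed, reduced to 2000 variable genes without the PKC genes and 30 components, and clustered by the Leiden method (15 neighbours, resolution 0.5; Python 3.11.15, scanpy 1.11.5, igraph 0.11.9). For cells this was 1 of 4 settings tried. The first gave 6 clusters. PKC levels per cluster had been seen before the setting was kept, because it gave 5 clusters like an earlier analysis; the other 3 settings are alternatives. Doublets were not called. Counts were summed per animal and cluster, section and region, or section and subregion. Groups without 5 cells or spots in every replicate were left out after their sizes were seen. Each group was set against the equally weighted mean of the others with edgeR 4.0.16 (R 4.3.3; TMM, filterByExpr, quasi-likelihood test, replicate block), with Benjamini-Hochberg adjustment over all genes tested and a threshold of 0.05. The SE is the log2 fold change divided by the root of F. Fits were tested on simulated data. DESeq2 1.42.0 was an alternative.

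The block stands for the same animal or section. Sums of 1 replicate deviated together with a median correlation of 0.0682 for cells, 0.0882 for regions and 0.0906 for subregions, against -0.0497, -0.0523 and -0.0421 for sums of different replicates. No label says that the sections came from separate animals, so p-values over sections may measure technical spread, and 2393 spot barcodes occur in 2 or more sections because the arrays share positions. Members and lists were chosen with earlier results of these data known. Of the 85-gene list, up to 4 called genes per direction and comparison could be named, with the 3 leading genes of each group and the 5 most similar genes of each member. Results of a few other genes that these rules name are not reported here.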

Additional observations from a re-analysis of the deposited data

Results flagged for a closer look

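Groups outside the comparisons also held counts of the members, and all values here are CPM over their summed counts. In the oligodendrocyte-like cluster 5 (27 cells), Prkcz was at 324 CPM, Prkce at 131 CPM, Prkcb at 109 CPM, Prkcd at 76.9 CPM, Prkch at 27.7 CPM and Prkca at 5.55 CPM from 7 counts. Region 12 (61 spots, all of posterior section 6) held Prkce at 708 CPM, Prkca at 438 CPM, Prkcb at 430.3 CPM, Prkcz at 162 CPM and Prkcd at 141 CPM. Subregion 7, with 7 thalamic spots, held Prkcb at 407 CPM, Prkce at 141 CPM and Prkcz at 62.6 CPM from 4 counts. None of these groups was tested.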

How the results depend on the processing

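No result that was called, in the main fits or under an alternative, changed direction. Among results uncalled both ways the sign changed 36 times for clusters, 14 for regions and 14 for subregions. The count of members called across clusters, 1 of 24, became 2 without the filter on low counts, 3 with DESeq2, 2 with clusters made from a random split of the counts and tests on the remainder, 2 with the first clustering tried, 2 of 18 with the PKC genes allowed in the clustering (where cluster 3 had no match), and 1 to 9 when each animal was left out, 9 being without animal 1. Prkca in cluster 4 was called in all 14 alternatives (log2 fold change 3.001 to 4.001, edgeR or DESeq2 adjusted p at most 0.0237). Across regions the main count of 52 of 66 was 47 to 51 when a section was left out; 20 calls were lost and 3 gained over all alternatives. Across subregions the 4 calls became 3 without the replicate block and 2 to 4 when a section was left out, 2 of 30 being without section 6; 4 calls were lost and 1 gained. The mean share of neurons with Prkcd was 25.4% in cells thinned to 5000 counts, against 40.3% unthinned. The anterior to posterior ratio of thalamic Prkcd was 0.471 with TMM-scaled totals, against 0.465. The cause of these shifts was not tested. The alternatives added after seeing the data were the other clusterings and the fit without cells carrying markers of another type. Counts of 5 or fewer in small subregions limit single values there.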
